A study of Mus musculus with 22 samples.

Results

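The genes described here are the protein-coding mouse genes whose symbol starts with Kcn, the symbols given to potassium channel subunits and their auxiliary proteins. The rule left out 1 gene with such a symbol, and 93 of the 21226 protein-coding genes in the count tables met it. No measured value entered the rule. RNA was sequenced from mice and cells with and without Phf8, an X-linked gene for a histone demethylase, on a B6x129SvJ background. From mice aged 2 months, prefrontal cortex (PFC) and ventral striatum (STR) were each represented by 3 WT and 3 Phf8 KO samples, as were neural progenitor cells (NPCs) taken from embryos at day E16.5 and grown as a monolayer. Embryonic stem cells (ESCs), from blastocyst outgrowths kept on gelatin or feeders, gave 2 WT and 2 KO samples. The KO allele was constitutive: Cre had removed loxP-flanked exons of Phf8 in clonally expanded ESCs, from which the mice were made, and no other allele or treatment was stated. The labels do not say whether replicates came from separate mice or cultures, so p-values measure only the spread between these samples, which may be technical.

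Potassium channels let potassium ions leave the cell along their gradient, which sets the resting membrane potential and ends the action potential. Voltage-gated alpha subunits of the Kv1 to Kv4 groups form tetramers that open on depolarization, while modifier subunits form no channel alone but change the Kv2 channels they join. Kv7 channels and the EAG, ERG and ELK channels act near the firing threshold, channels activated by calcium or sodium follow firing, inward rectifiers and two-pore channels hold the resting potential, and auxiliary proteins alter the gating and transport of pore subunits. The 93 genes comprised 17 Kv1 to Kv4 alpha subunits, 10 modifier subunits, 5 Kv7 genes, 8 EAG, ERG and ELK genes, 8 calcium- or sodium-activated channels, 14 inward rectifiers, 14 two-pore channels, 16 auxiliary subunits and Kcnrg, a regulator outside these groups.

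The 22 libraries held 5898286 to 15539811 reads counted on genes. Phf8 was lower in every KO library than in every WT library of the same tissue, with a mean of 18.4 against 47.5 CPM (counts scaled to the size of the library) in PFC, 20.7 against 53.6 in STR and 13.8 against 36.9 in NPCs, and a log2 fold change of -1.79 in ESCs. These counts cover the whole gene, exons outside the deletion included. All 8 striatal projection neuron markers were lower in WT PFC than in WT STR, and all 7 cortical excitatory neuron markers were higher (edgeR, FDR under 0.05). STR KO replicate 1 stood apart, with hypothalamic markers summing to 211 CPM against 24.7 and 35.3 in the other STR KO libraries, and cortical excitatory markers to 140 CPM against 486 and 548. In NPCs the progenitor markers Nes, Sox2 and Olig2 were abundant and Pax6 was at 33.3 to 60.1 CPM, while 4 neuron markers together summed to only 11.0 to 22.1 CPM. Oligodendrocyte markers summed to 198 and 367 CPM in WT and KO replicate 2 of the NPCs and to 1679 to 2776 CPM in the other 4 NPC libraries.

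Potassium channel RNA was most abundant in the brain samples and least abundant in ESCs. Levels of different genes are given as RPKM, which is CPM divided by the exon length in kilobases. Summed over the 93 genes, the level in WT samples was 1162 ± 10.2 RPKM in PFC, 1032 ± 26.5 in STR and 382 ± 27.4 in NPCs (SD, n = 3 each), and 75.9 ± 8.39 RPKM in ESCs (SD, n = 2). These groups did not overlap. A mean of 1 RPKM was reached by 67 of the 93 genes in WT PFC, 63 in WT STR, 33 in WT NPCs and 13 in WT ESCs. The highest WT mean lay in PFC for 48 genes, in STR for 31, in NPCs for 8 and in ESCs for 6. The 48 include Kcnk16 and Kcnk18, which were at 0 RPKM in every WT group, so that no tissue was highest for them. No test was made between cultured cells and brain, because a strand setting of the counting is given for the cultured cells only. In bulk samples fewer cells of a type and less RNA per cell cannot be told apart.

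**Figure D1:**
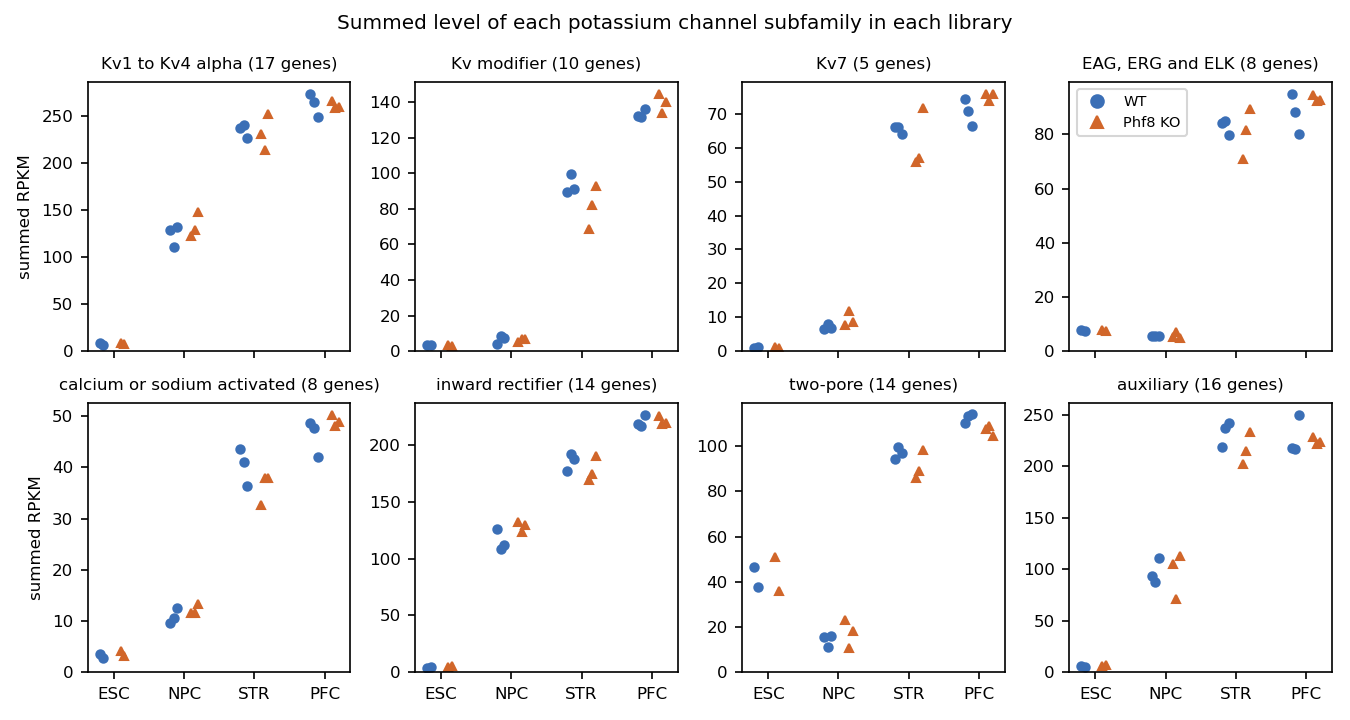
Summed level of each subfamily in RPKM on the vertical axis, which starts at 0, against tissue or cell type, with 1 panel per subfamily and 1 point per library (circles WT, triangles Phf8 KO). NPC libraries lie below the ESC libraries for the two-pore channels, which average 14.3 against 41.9 RPKM in WT, while WT PFC lies above WT STR for the Kv modifier subunits, at 133 against 93.4 RPKM.

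The subfamilies differed in how their level spread over the tissues. The Kv1 to Kv4 alpha subunits had a summed level of 7.92 RPKM in WT ESCs and 124 in NPCs, against 235 in STR and 263 in PFC. Modifier subunits were scarce in both cultured cell types, at 3.61 and 6.56 RPKM, against 93.4 in STR and 133 in PFC. Kv7 genes followed the same course with 1.06, 7.16, 65.5 and 70.6 RPKM. Inward rectifiers and auxiliary subunits, like the Kv1 to Kv4 alpha subunits, were already abundant in NPCs. The inward rectifiers were at 115 RPKM there and the auxiliary subunits at 97.3, against 220 and 228 RPKM in PFC. In NPCs the inward rectifier sum lay mostly in Kcnj10 (66.7 RPKM) and Kcnj16 (43.5), and the auxiliary sum in Kcnip3 (76.4). The two-pore channels went the other way between the cultured cells, with 41.9 RPKM in ESCs and 14.3 in NPCs, and made up the largest summed level of any subfamily in ESCs. The EAG, ERG and ELK genes were low in both, at 7.59 and 5.57 RPKM.

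Single genes led each tissue. In WT PFC the order began with Kcnj4, a strong inward rectifier, at 65.2 ± 7.22 RPKM. It was followed by Kcnab2, a beta subunit of Kv1 channels, at 59.8 ± 6.04 RPKM, by Kcna1, a Kv1 alpha subunit of axons, at 57.5 ± 1.24 RPKM, and by the two-pore channel Kcnk1 at 57.0 ± 3.60 RPKM. Each of these differed from the next by less than the larger of their SDs. In WT STR Kcnj4 stood above the rest at 83.9 ± 3.48 RPKM, ahead of Kcnip2, a calcium-binding partner of Kv4 channels, at 58.5 ± 3.83 and Kcna1 at 57.6 ± 3.09 RPKM, which overlapped. Both regions shared the leader of 3 other subfamilies: the modifier subunit Kcnf1 (49.2 RPKM in PFC and 36.9 in STR), the ELK channel Kcnh3 (32.8 and 28.3) and the sodium-activated channel Kcnt1 (15.9 and 21).

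NPCs and ESCs were led by other genes. In WT NPCs the highest level was that of Kcnip3, another Kv4 partner that also binds DNA, at 76.4 ± 8.16 RPKM, which overlapped with Kcnj10, the main inward rectifier of glia, at 66.7 ± 14.1 RPKM. Its partner Kcnj16 followed at 43.5 ± 4.57 RPKM and the Kv4 alpha subunit Kcnd3 at 40.5 ± 4.18. In 8 genes the WT NPC mean exceeded the WT means of all other tissues, and Kcnn4, the intermediate-conductance calcium-activated channel, had its highest level there, at 4.16 ± 2.13 RPKM against 0.0617 in PFC, 0.0855 in STR and 0.243 in ESCs. In WT ESCs the acid-sensitive two-pore channel Kcnk5 was at 31.5 and 23.6 RPKM, ahead of Kcnk1 at 11.6 ± 0.571 RPKM. No other potassium channel gene reached a mean of 4 RPKM there, and the ERG channel Kcnh2 came next with 3.72 RPKM. Kcnk5 was at 1.17 RPKM in NPCs and below 0.4 RPKM in both brain regions.

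The first comparison asked which potassium channel genes differ between PFC and STR in WT mice. Of the 76 genes that passed the filter on low counts, 34 were higher in PFC and 17 lower at an FDR under 0.05, the Benjamini-Hochberg adjusted p of edgeR's quasi-likelihood test over all genes tested. The same call was made for 13% of all 15555 genes in the higher and 11.4% in the lower direction, against 44.7% and 22.4% of the tested potassium channel genes. The median log2 fold change was 0.35 over the 76 genes and -0.01 over all genes. Of the 51, 23 also differed by more than 1 on the log2 scale, against 1292 of the 3791 called over all genes. With 1 library left out at a time the count ranged from 40 to 49, and from 2863 to 3879 over all genes. In every such fit 36 of the 51 genes were called. With the replicate number as a block 59 genes were called, the 51 among them, with 5405 called over all genes.

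**Figure D2:**
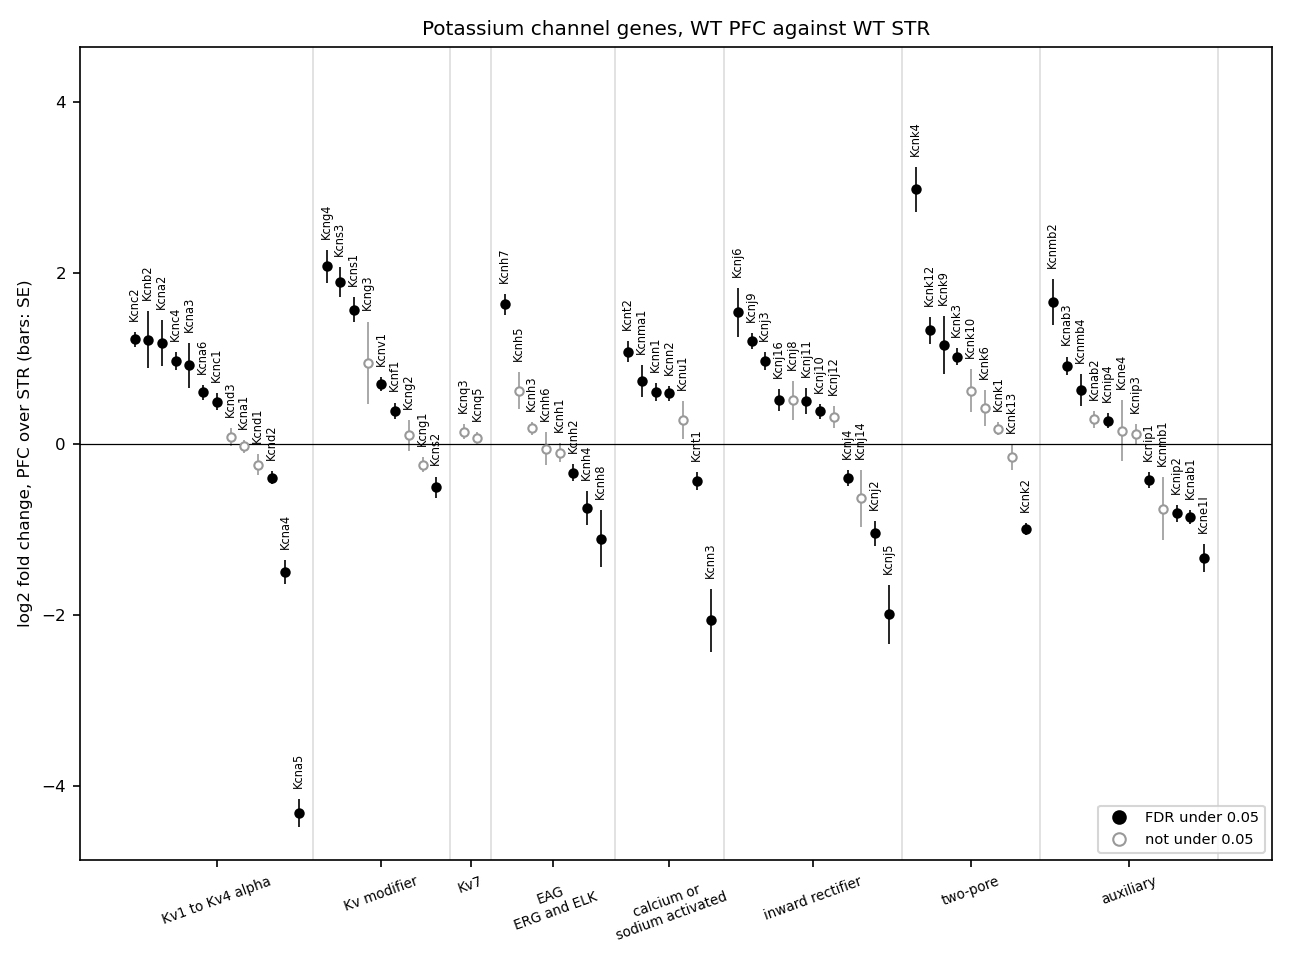
Log2 fold change of the potassium channel genes in WT PFC over WT STR on the vertical axis, grouped by subfamily along the horizontal axis, with bars of 1 SE (3 samples a region). Filled points have an FDR under 0.05. Most filled points lie above 0, and Kcna5, at -4.31, lies farthest from it.

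Kcna5, a delayed rectifier of the Kv1 group, differed most. Its level was 76.4, 71.8 and 80.7 CPM in the WT STR libraries and 2.60, 4.19 and 4.92 CPM in those of WT PFC. The groups lay far apart (log2 fold change -4.31, SE 0.16, FDR 6.73e-08). In the KO mice, whose libraries are separate, the STR levels of 61.3, 68.9 and 73.1 CPM and the PFC levels of 5.61, 5.27 and 5.65 CPM gave -3.63 (FDR 6.46e-07). Kcna4, an inactivating Kv1 alpha subunit, was at 99.4, 82.5 and 95.3 CPM in WT STR and at 40.3, 30.8 and 26.9 CPM in WT PFC, again without overlap (log2 fold change -1.49, SE 0.14, FDR 2.82e-05).

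Kcnk4 and Kcnh7 stood on the other side. Kcnk4, a two-pore channel that opens on membrane stretch, was at 31.8, 33.6 and 28.8 CPM in WT PFC and at 3.20, 6.47 and 2.32 CPM in WT STR. Its log2 fold change of 2.98 (SE 0.26, FDR 1.84e-05) was the largest in this direction, and 13.2% of its exon bases are shared with the neighbouring gene Catsperz on the same strand. Kcnh7, an ERG channel, was at 227, 178 and 173 CPM in WT PFC and at 63.5, 67.0 and 55.5 CPM in WT STR (log2 fold change 1.64, SE 0.12, FDR 5.45e-06). Neither gene overlapped between the regions.

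The 250 bases before the RefSeq start of 4 genes are shown, the 2 of smallest p in each direction among the genes with a single RefSeq start, so that the start regions of genes higher in STR (Kcna5, Kcna4) and in PFC (Kcnh7, Kcnj9) can be set side by side. They are given 5′ to 3′ on the gene's strand in build GRCm38.p6, with CG dinucleotides in capitals.
Kcna5, chr6:126535556-126535805, minus strand: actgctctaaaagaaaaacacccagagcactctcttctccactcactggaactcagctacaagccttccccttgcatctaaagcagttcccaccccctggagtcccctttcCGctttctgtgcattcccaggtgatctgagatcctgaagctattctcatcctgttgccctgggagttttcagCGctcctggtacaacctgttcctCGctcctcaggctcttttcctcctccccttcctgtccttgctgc
Kcna4, chr2:107290339-107290588, plus strand: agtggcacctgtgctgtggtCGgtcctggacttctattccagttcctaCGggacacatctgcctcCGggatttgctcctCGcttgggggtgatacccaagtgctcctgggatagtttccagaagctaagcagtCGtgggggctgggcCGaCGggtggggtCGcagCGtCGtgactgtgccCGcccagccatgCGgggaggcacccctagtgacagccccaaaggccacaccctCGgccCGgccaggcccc
Kcnh7, chr2:63184288-63184537, minus strand: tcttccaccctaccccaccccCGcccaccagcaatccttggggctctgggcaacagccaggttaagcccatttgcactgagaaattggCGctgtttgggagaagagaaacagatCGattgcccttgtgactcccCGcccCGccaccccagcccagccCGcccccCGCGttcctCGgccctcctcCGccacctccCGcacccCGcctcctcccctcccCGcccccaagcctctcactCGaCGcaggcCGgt
Kcnj9, chr1:172329323-172329572, minus strand: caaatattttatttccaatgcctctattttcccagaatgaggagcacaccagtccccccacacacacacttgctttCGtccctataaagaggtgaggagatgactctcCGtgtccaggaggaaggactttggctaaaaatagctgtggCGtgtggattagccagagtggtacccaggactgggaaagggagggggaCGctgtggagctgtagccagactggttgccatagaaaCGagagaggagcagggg

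These 4 regions held 3, 14, 16 and 5 CG dinucleotides in the order printed. RefSeq regions were found for 68 of the 93 genes, with 93 starts in all and a median of 7 CG dinucleotides, against 6 over all 32841 starts in the table, 92.1% of which hold at least 1. The median was 8 over the 34 starts of genes higher in PFC and 11 over the 22 starts of genes higher in STR. The letters TATAAA, read on both strands, were in 12.4% of all starts and in 2.15% of the potassium channel starts, with that of Kcnj9 among them. They were in 5.88% of the starts of genes higher in PFC and in 0 of 22 of those higher in STR. These are descriptions of the letters in these windows, with no test.

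Neighbouring genes differed in direction in some clusters and shared it in others. On chromosome 6 Kcna5 (126532551 to 126535412, GENCODE M21), Kcna1 (126640397 to 126646384) and Kcna6 (126708329 to 126740674) follow each other on the minus strand. Their log2 fold changes between WT PFC and WT STR were -4.31, -0.02 (SE 0.08, FDR 0.867) and 0.61 (SE 0.09, FDR 0.000543). Of the exon bases of Kcna6, 39.6% are shared with Gm26673 on the opposite strand, and without strand their reads cannot be told apart. On chromosome 11 the inward rectifiers Kcnj16 and Kcnj2 lie 38196 bases apart, with log2 fold changes of 0.52 (FDR 0.0131) and -1.04 (FDR 0.000403). Kcnj9 and Kcnj10 on chromosome 1, 11892 bases apart, were both higher in PFC (1.21 and 0.39), as were Kcna3 and Kcna2 on chromosome 3, 63076 bases apart (0.92 and 1.19).

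Among the 15 tested Kv1 to Kv4 alpha subunits, 9 were higher in WT PFC and 3 lower. Kcnc1, Kcnc4 and Kcnc2 of the Kv3 group, whose channels serve fast firing, were higher in PFC, by 0.50 (FDR 0.00356), 0.97 (FDR 0.000107) and 1.22 on the log2 scale. Kcnc2 was at 197, 190 and 190 CPM in WT PFC and at 79.1, 91.5 and 76.4 CPM in WT STR (FDR 3.69e-06). Among the Kv1 genes Kcna2, a partner of Kcna1 in axons, was at 44.9, 51.5 and 21.2 CPM in WT PFC and 18.2, 19.9 and 14.3 CPM in WT STR. The value of 21.2 is from PFC WT replicate 3, the smallest library of the series, and lies close to the STR range (log2 fold change 1.19, SE 0.27, FDR 0.00879). The Kv2 gene Kcnb2 was at 18.3, 10.4 and 7.02 CPM in WT PFC and 5.03, 3.83 and 6.69 CPM in WT STR, and its call (log2 fold change 1.22, SE 0.33, FDR 0.0224) was lost without STR WT replicate 1 (FDR 0.0527), STR WT replicate 2 (FDR 0.0748) or PFC WT replicate 1 (log2 fold change 0.79, FDR 0.0816). Of the Kv4 genes, Kcnd2 was lower in PFC (-0.39, SE 0.08, FDR 0.00475), and Kcnd3 at 0.08 (SE 0.10) was not called.

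Modifier subunits were higher in PFC in 5 of 9 tested genes and lower in 1, Kcns2. Kcng4 was at 15.6, 19.1 and 14.0 CPM in WT PFC and 3.32, 4.22 and 4.10 CPM in WT STR (log2 fold change 2.08, SE 0.19, FDR 2.61e-05). Kcns3 was at 21.9, 21.5 and 26.3 CPM against 5.84, 7.65 and 5.19 CPM (1.89, SE 0.17, FDR 2.61e-05). Kcns1 was at 40.5, 58.0 and 49.5 CPM against 15.7, 17.8 and 16.4 CPM (1.57, SE 0.14, FDR 2.40e-05). None of these 3 genes, each of which modifies Kv2 channels, overlapped between the regions.

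Kcnq3 and Kcnq5 of the Kv7 group, which carries the M current of neurons, were not called, with log2 fold changes of 0.15 (SE 0.09) and 0.07 (SE 0.08). Of the 8 EAG, ERG and ELK genes, 3 were lower in PFC and only Kcnh7 higher. Kcnh8, an ELK channel, was at 0.990, 0.682 and 0.878 CPM in WT PFC against 2.06, 1.72 and 1.64 CPM in WT STR. Its log2 fold change of -1.10 (SE 0.33, FDR 0.0345) rested on few reads and lost its call when any 1 of the 6 libraries was left out (FDR 0.0645 to 0.139).

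Calcium- and sodium-activated channels differed in both directions, with 4 of 7 tested genes higher in PFC and 2 lower. The small-conductance channels, which follow bursts of firing, were split. Kcnn1 and Kcnn2 were higher in PFC by 0.61 (FDR 0.00202) and 0.60 (FDR 0.000581) on the log2 scale. Kcnn3 was lower, at 3.34, 6.04 and 1.58 CPM in WT PFC against 22.5, 15.0 and 11.2 CPM in WT STR (log2 fold change -2.06, SE 0.37, FDR 0.00225, and -2.66 without PFC WT replicate 2). The large-conductance pore gene Kcnma1 was higher in PFC (0.74, FDR 0.0150), though 1 value of each region overlapped. Its inactivating beta subunit Kcnmb2 was at 7.55, 9.65 and 7.37 CPM in WT PFC and 1.60, 3.30 and 3.01 CPM in WT STR (1.66, SE 0.27, FDR 0.00118), and in the KO libraries its difference was 0.69 (FDR 0.0644).

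Inward rectifiers were higher in PFC in 6 of 12 tested genes and lower in 3. The G protein-gated channels, which carry slow inhibition by transmitters, were split as well. Kcnj3, Kcnj6 and Kcnj9 were higher in PFC by 0.98, 1.54 (SE 0.29, FDR 0.00277) and 1.21 on the log2 scale, and Kcnj5 was lower. Kcnj9 was at 215, 206 and 213 CPM in WT PFC and 80.8, 104 and 89.3 CPM in WT STR (SE 0.10, FDR 9.66e-06). Kcnj5 was scarce in both, at 0.866, 1.36 and 0.527 CPM against 4.92, 3.17 and 3.69 CPM (-1.99, SE 0.35, FDR 0.00181). The strong inward rectifier Kcnj2 was at 33.3, 42.0 and 28.4 CPM in WT PFC and 78.5, 61.9 and 75.7 CPM in WT STR (-1.04, SE 0.14, FDR 0.000403), and Kcnj4 was lower in PFC by a smaller amount (-0.39, SE 0.09, FDR 0.0108). The glial genes Kcnj10 and Kcnj16 were higher in PFC (0.39, FDR 0.00837 and 0.52, FDR 0.0131), and astrocyte markers summed to 2355 to 2650 CPM in WT PFC against 2085 to 2185 in WT STR, whose part in the result was not tested.

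Two-pore channels were higher in PFC in 4 of 9 tested genes and lower in 1. The single lower gene was Kcnk2, a stretch-gated channel related to Kcnk4, at 71.3, 72.0 and 69.7 CPM in WT PFC and 138, 140 and 146 CPM in WT STR (log2 fold change -0.99, SE 0.07, FDR 4.75e-06). The acid-sensitive channels Kcnk3 and Kcnk9 were higher (1.02, FDR 3.95e-05 and 1.16, FDR 0.0313). Kcnk12, which forms channels with Kcnk13, was at 17.1, 23.0 and 20.9 CPM against 8.01, 8.31 and 7.92 CPM (1.33, SE 0.16, FDR 0.000141), and Kcnk13 itself was not called (-0.15, FDR 0.539).

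Auxiliary subunits were divided evenly, with 4 of 12 tested genes higher and 4 lower in PFC. Kcnab1, a beta subunit of Kv1 channels, was at 142, 140 and 143 CPM in WT PFC and 248, 241 and 281 CPM in WT STR (-0.85, SE 0.08, FDR 3.22e-05), while Kcnab3 of the same family was higher (0.92, FDR 0.000132). Of the Kv4 partners, Kcnip2 was at 130, 119 and 149 CPM against 240, 214 and 242 CPM (-0.81, SE 0.10, FDR 0.000150), Kcnip1 was also lower (-0.42, FDR 0.00716) and Kcnip4 was higher (0.28, FDR 0.0368). Kcne1l, a single-span beta subunit, was at 5.81, 5.85 and 5.09 CPM against 14.8, 14.9 and 12.8 CPM (-1.33, SE 0.16, FDR 0.000168). None of these auxiliary genes overlapped between the regions, though the values of Kcnip4 came close.

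**Figure D3:**
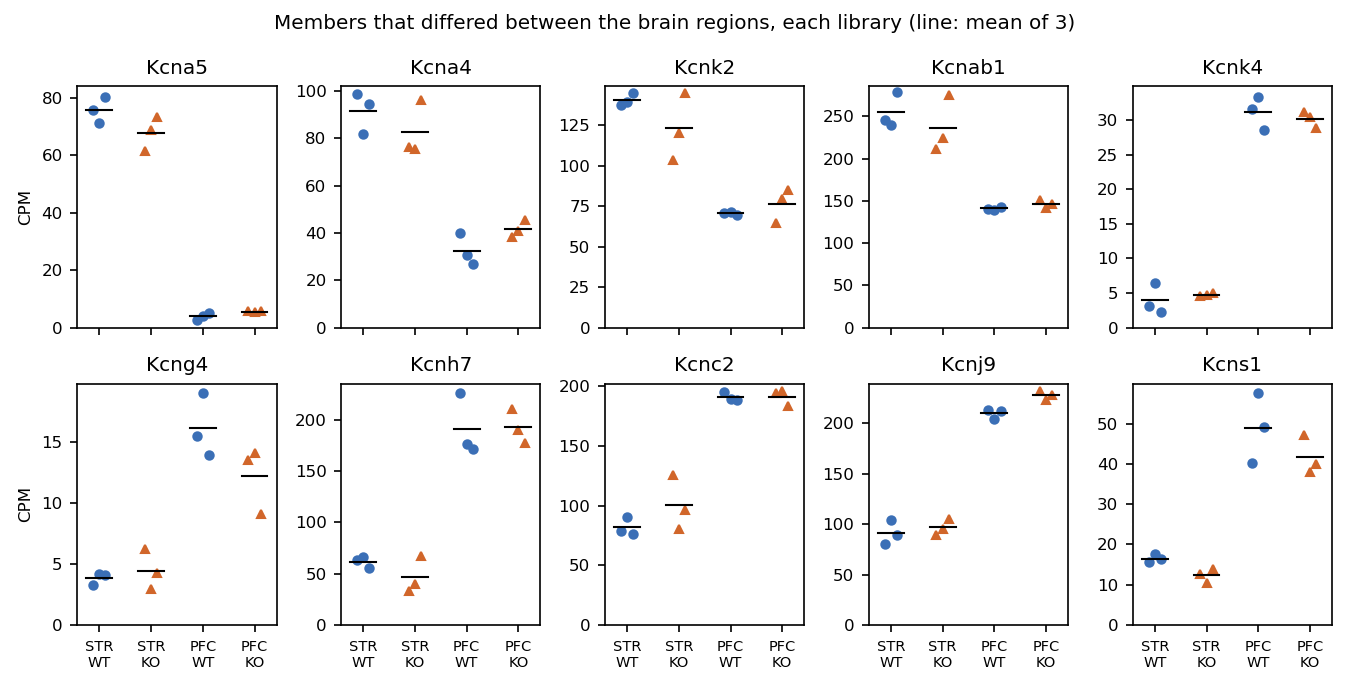
Level in CPM, from 0, of 10 potassium channel genes in each brain library, scaled over the 12 libraries, with 1 point per library (circles WT, triangles Phf8 KO) and a line at the mean of 3. For each gene the PFC and STR libraries form separate groups in both genotypes, as for Kcna5 at 61.3 to 80.2 CPM in STR and 2.58 to 5.65 CPM in PFC.

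The KO libraries of the 2 regions gave a second, separate reading of the regional difference. In them 46 of 77 tested genes were called, against 4301 of all 15538 genes. Of the 51 genes called in WT 38 were called again, all 38 in the same direction. Without STR KO replicate 1 the KO libraries called 48 genes, of which 41 were among the 51, with 3935 called over all genes. Of the 51, 50 had the same sign in KO, the exception being Kcnj10 (0.39 in WT and -0.04 in KO). Over the 76 genes tested in both, the log2 fold changes had a Pearson r of 0.935, given as a description across genes.

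Partner genes outside the Kcn symbols were set beside the channels. Of 19 such genes the sulfonylurea receptor Abcc8, the partner of Kcnj11 in ATP-sensitive channels, was higher in WT PFC (log2 fold change 1.02, SE 0.13, FDR 0.000285), as was Kcnj11 itself (0.51, FDR 0.0334). Amigo1, an auxiliary of Kv2 channels, was higher (0.36, FDR 0.00773), as was Cntn2 (0.36, FDR 0.0483). Cntnap2, which clusters Kv1 channels beside nodes together with Cntn2, was lower (-0.59, SE 0.11, FDR 0.00275), as was the cation channel gene Hcn3 (-0.39, FDR 0.0167). In all, 12 partner genes were tested and not called, and Lrrc52 was not detected.

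The second comparison asked how potassium channel genes differ between WT NPCs and WT ESCs. Of 57 tested genes 33 were higher in NPCs and 11 lower at an FDR under 0.05, against 34.6% and 36.6% of all 15938 genes. The tested potassium channel genes were thus called higher in 57.9% and lower in 19.3%, with a median log2 fold change of 2.61 against -0.02 over all genes. Genes with almost no counts in 1 cell type passed the filter only through the other, so the filter fixed their direction. Examples are Kcnd3, with 3 and 4 counts in the WT ESC libraries, and Kcns3, with 0 in those of WT NPCs. The shares and the median describe the genes that passed and were not tested further. The median was the same with the 3 tested genes that had 0 counts in 1 cell type set at their lower bound. It could not move, because each bound lies on the same side of the median as the fitted value. Of the 44 called genes 38 were called in every fit that left out 1 library.

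**Figure D4:**
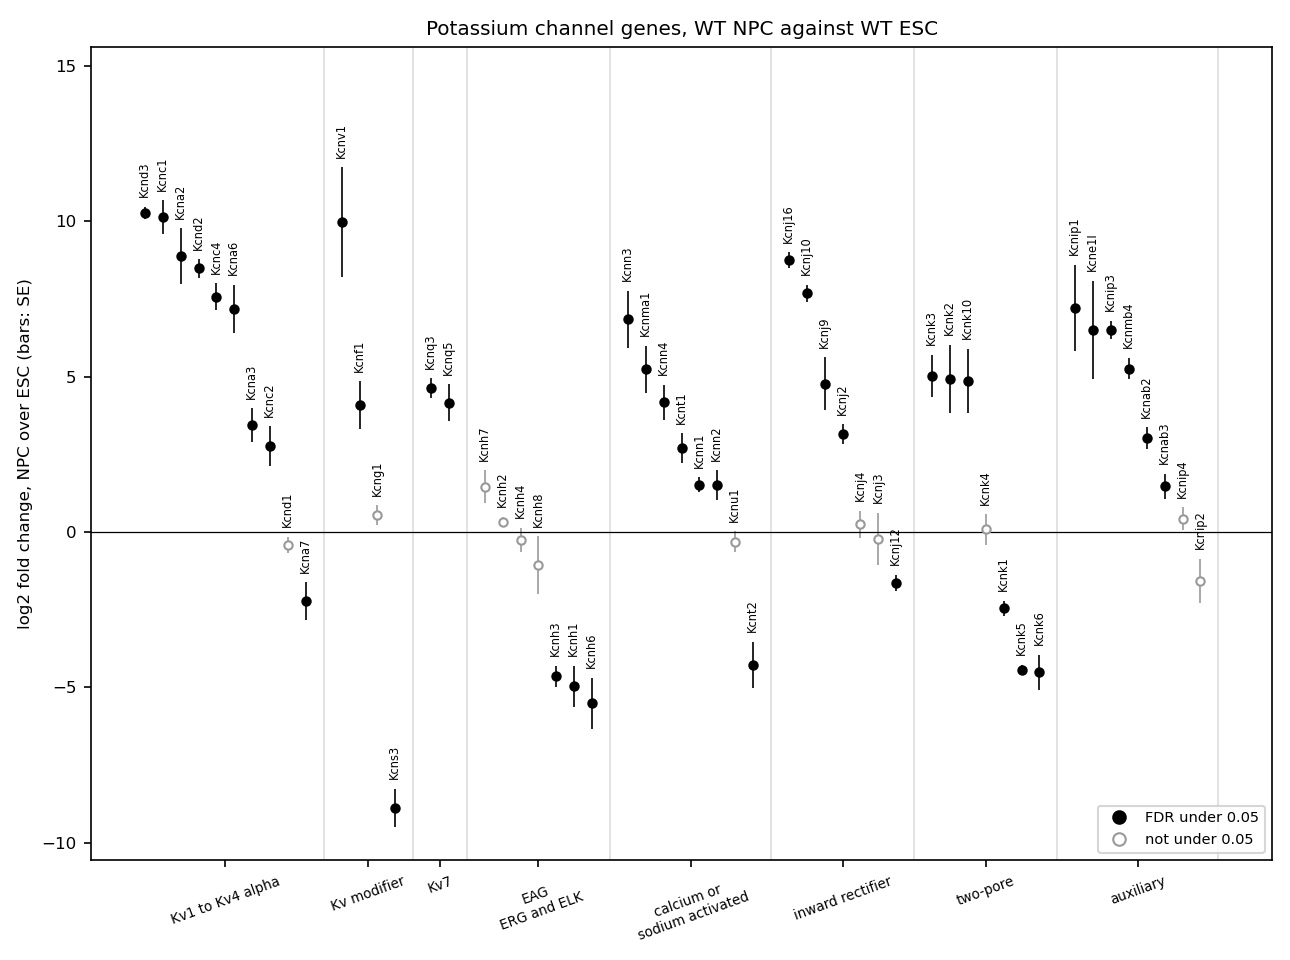
Log2 fold change of the potassium channel genes in WT NPCs (3 samples) over WT ESCs (2 samples) on the vertical axis, grouped by subfamily, with bars of 1 SE and filled points for an FDR under 0.05. Kv1 to Kv4 alpha subunits and auxiliary subunits lie mostly above 0, the called EAG, ERG and ELK genes lie below it, and the fitted values of genes with few or no counts in 1 cell type, such as Kcns3 and Kcnv1, depend on the prior count.

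Kv1 to Kv4 alpha subunits were higher in NPCs in 9 of 12 tested genes and lower in 1. Kcnd3 was at 371, 311 and 362 CPM in WT NPCs and at 0.25 and 0.293 CPM in WT ESCs (log2 fold change 10.27, SE 0.21, FDR 2.22e-05). Kcnd2, also of the Kv4 group, was at 96.9, 124 and 125 CPM against 0.417 and 0.220 (8.48, SE 0.29, FDR 4.70e-05). Both genes had few reads in ESCs and were among the leading channels of NPCs by RPKM, while Kcnd1 of the same group was not called (-0.42, SE 0.26, FDR 0.193). Kcnc1 of the Kv3 group was at 230, 130 and 199 CPM against 0.25 and 0.0734 (10.13, SE 0.54, FDR 0.000125, and 9.44 to 11.14 with either ESC library left out), and Kcnc4 at 32.6, 57.5 and 49.5 CPM against 0.25 and 0.220 (7.58, SE 0.43, FDR 0.000125). Kcna2 was at 87.2, 28.1 and 63.1 CPM in NPCs, and its 2499 counts there against 3 in ESCs gave a ratio of 522 (exact 95% interval of counting error 178 to 2531), and its fitted log2 fold change of 8.88 was 9.49 without ESC WT replicate 1.

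Inward rectifiers and auxiliary subunits included the glial pair. Kcnj10 was at 399, 277 and 294 CPM in WT NPCs and 1.58 and 1.54 CPM in WT ESCs (log2 fold change 7.68, SE 0.27, FDR 4.83e-05). Kcnj16 was at 135, 170 and 157 CPM against 0.25 and 0.440 CPM (8.74, SE 0.26, FDR 3.76e-05). Astrocyte markers, 6 of 7 of which were called higher in NPCs, summed to 3974 to 6557 CPM in WT NPCs against 230 and 268 in WT ESCs, and their part in the result was not tested. Kcnip3 was at 221, 238 and 271 CPM against 3.5 and 1.91 CPM (6.5, SE 0.30, FDR 8.66e-05), and 6 of the 8 tested auxiliary genes were higher in NPCs and 0 lower. Among the modifier subunits Kcnv1 was at 5.29, 18.6 and 4.46 CPM in NPCs and had 0 counts in both ESC libraries, which makes it at least 75.6-fold higher in NPCs, with a floor of 3 counts over the group. Of its 362 NPC counts 221 were in replicate 2, and its fitted log2 fold change, which depends on the prior count, was 9.06 without that library and 9.97 with it.

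Some of the NPC values varied with the replicate. Kcne1l was at 14.4, 1.68 and 18 CPM in WT NPC replicates 1 to 3, and Kcnk2 at 40.5, 9.18 and 44.9 CPM. Both were lowest in replicate 2, the library whose oligodendrocyte and astrocyte markers were also lowest, and Kcnv1 was highest there. The part of these markers in the result was not tested.

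Of the 11 genes higher in ESCs, 6 were EAG, ERG and ELK genes or two-pore channels. Of the 7 tested EAG, ERG and ELK genes 3 were lower in NPCs and 0 higher. Kcnh3 was at 6.59 and 7.26 CPM in WT ESCs and 0.363, 0.253 and 0.197 CPM in WT NPCs (log2 fold change -4.64, SE 0.34, FDR 0.000225). Kcnh6 had 95 counts in ESCs and 3 in NPCs, a ratio of 50.6 (95% interval 16.8 to 250), with all 3 NPC counts in replicate 3, and Kcnh1 had 47 and 2, a ratio of 37.5 (9.83 to 319). Two-pore channels were split, with 3 of 7 higher and 3 lower in NPCs. Kcnk5 was at 87.8 and 68.3 CPM in ESCs against 3.34, 3.54 and 3.87 CPM in NPCs (-4.44, SE 0.16, FDR 5.18e-05), Kcnk1 at 22.0 and 21.3 against 3.84, 4.97 and 3.02 CPM (-2.46, SE 0.25, FDR 0.000607), and Kcnk6 at 6.26 and 5.58 against 0.290, 0.421 and 0.0656 CPM (-4.52, SE 0.56, FDR 0.00115). The groups did not overlap for any of these genes. The sodium-activated channel Kcnt2 was at 6.17 and 4.33 CPM against 0.363, 0 and 0.393 CPM (-4.27, SE 0.74, FDR 0.00397). The modifier subunit Kcns3 had 113 counts in ESCs and 0 in NPCs, at least 60.2-fold higher in ESCs.

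The third comparison asked whether loss of Phf8 changed potassium channel genes, and none was called in any tissue. In PFC 0 of 73 tested genes had an FDR under 0.05, against 0.638% of all 15364 genes. In STR it was 0 of 77, against 0% of 15476 genes, in NPCs 0 of 49, against 0.00697% of 14351, and in ESCs 0 of 41, against 0% of 15080. At an unadjusted p under 0.05 the counts were 10, 11, 1 and 0 genes, or 13.7%, 14.3%, 2.04% and 0%, against 11.2%, 8.7%, 3.03% and 1.13% of all genes. Phf8 itself had an FDR of 0.00193 in PFC and 0.0285 in NPCs in these fits. It was not called in STR (log2 fold change -1.37, FDR 0.0956) or in ESCs (-1.79). The absence of calls in STR and ESCs thus does not show that no gene changed there. DESeq2 and edgeR's exact test each called 1 potassium channel gene in PFC, Kcnk13, and 0 in the other tissues. Over all genes they called 196 and 375 in PFC and 53 and 104 in STR. In NPCs these counts were 5 and 2, and in ESCs 3 and 2. The log2 fold change was within 0.5 of 0 for 70 of 73 genes in PFC, 70 of 77 in STR, 41 of 49 in NPCs and 35 of 41 in ESCs, with median SEs of 0.11, 0.15, 0.32 and 0.37. The summed level was 1172 ± 18.9 RPKM in KO PFC against 1162 ± 10.2 in WT PFC, and 978 ± 78.0 in KO STR against 1032 ± 26.5 in WT STR, which overlapped in both regions.

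**Figure D5:**
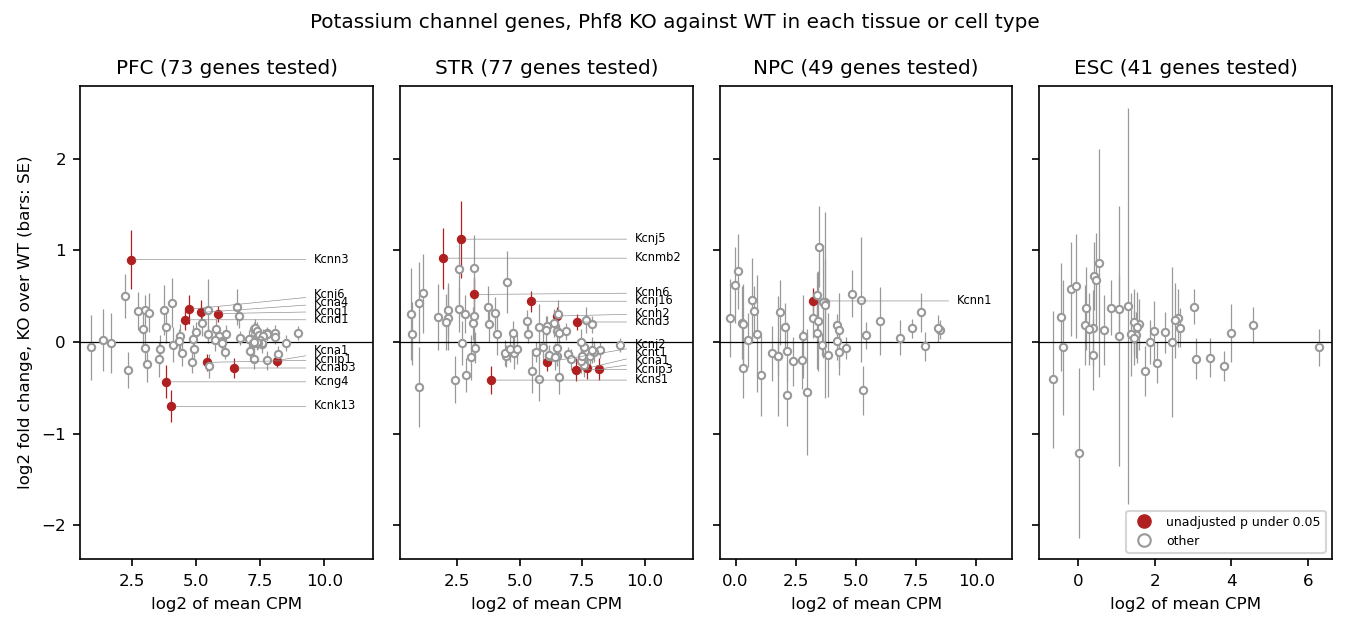
Log2 fold change of KO over WT on the vertical axis against the log2 of the mean CPM, 1 panel per tissue, with bars of 1 SE and filled, named points for an unadjusted p under 0.05. No point has an FDR under 0.05, and the bars are shortest in PFC, where the median SE is 0.11, and longest in ESCs, where it is 0.37.

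In PFC the smallest p belonged to the two-pore channel Kcnk13. Its level was 18.1, 24.9 and 17.4 CPM in WT and 15.1, 11.0 and 11.4 CPM in KO, without overlap. The log2 fold change was -0.70 (SE 0.17, FDR 0.107). DESeq2 gave an FDR of 0.0473, edgeR's exact test 0.0185 and the fit with no filter 0.00474, so that the call for this gene depended on the test. The modifier subunit Kcng1 was at 47.3, 50.7 and 57.1 CPM in WT and 63.0, 64.7 and 63.8 CPM in KO (0.31, SE 0.09, FDR 0.156). Without PFC WT replicate 3 its log2 fold change was 0.38 (FDR 0.0442). In that fit 2 potassium channel genes were called, against 124 of all genes. Kcna1 was at 302, 309 and 297 CPM in WT and 267, 264 and 260 CPM in KO (-0.20, SE 0.07, FDR 0.247), a small difference without overlap.

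The other PFC genes with an unadjusted p under 0.05 were of either direction. Kcnn3 was at 3.26, 5.97 and 1.56 CPM in WT and 8.05, 6.34 and 7.24 CPM in KO (0.90, SE 0.32, FDR 0.295). Kcnip1 was at 45.1, 47.0 and 46.7 CPM in WT and 42.9, 38.3 and 37.8 CPM in KO (-0.22, SE 0.09, FDR 0.363). Kcna4 (0.32), Kcnj6 (0.36) and Kcnd1 (0.24) had positive log2 fold changes, and Kcng4 (-0.43) and Kcnab3 (-0.28) negative ones, with FDRs of 0.307 to 0.439. KO and WT libraries did not overlap for 15 of the 73 genes, 20.5%, against 17.1% of all genes. In the same libraries 5 of 8 oligodendrocyte markers were called lower in KO, summing to 1592 to 1710 CPM in KO and 1987 to 2642 CPM in WT, and their part in these values was not tested.

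In STR the values moved with 1 library. With all 6 libraries 11 genes had an unadjusted p under 0.05, and without STR KO replicate 1, the library with high hypothalamic markers, there were 3. Leaving out STR KO replicate 2 or 3 gave 18 and 19, and STR WT replicate 2 or 3 gave 5 and 6. The shares over all genes were not worked out for these fits. A shift of p over all genes therefore cannot be told from one in the potassium channel genes. The 3 genes left without STR KO replicate 1 were Kcnj16, Kcns1 and Kcnh6. Kcnj16 was at 35.3, 39.5 and 37.4 CPM in WT and 59.3, 45.6 and 47.6 CPM in KO (0.45, SE 0.11, FDR 0.411, and 0.31 with an unadjusted p of 0.0126 without that library). Kcns1 was at 15.8, 18.1 and 16.6 CPM in WT and 12.8, 10.8 and 14.3 CPM in KO (-0.42, SE 0.15, FDR 0.490), and Kcnh6 at 8.98, 6.96 and 6.37 CPM in WT and 10.7, 11.5 and 9.81 CPM in KO (0.52, SE 0.19, FDR 0.484). These 3 genes did not overlap between the genotypes.

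Kcnj5 also depended on that library. It was at 4.95, 3.21 and 3.74 CPM in WT and 14.7, 4.54 and 6.78 CPM in KO, where the 14.7 is replicate 1. Its log2 fold change was 1.12 (SE 0.42, FDR 0.497) with that library and 0.49 without it. Kcnmb2 had 0.92 with it and 0.65 without, Kcnh2 0.28 and 0.18, Kcna1 -0.29 and -0.18, Kcnip3 -0.30 and -0.21, Kcnt1 -0.29 and -0.23, Kcnj2 -0.22 and -0.22, and none of these had an FDR under 0.05. Values that did not overlap between KO and WT were found for 10 of 77 genes, 13%, against 13.4% of all genes.

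In the cultured cells, with no block in the fit, only Kcnn1 in NPCs had an unadjusted p under 0.05. It was at 8.26, 6.97 and 8.08 CPM in WT and 11.0, 11.1 and 9.67 CPM in KO, without overlap (0.45, SE 0.15, unadjusted p 0.0194, FDR 0.9998). With the replicate number as a block, 7 of the NPC genes had an unadjusted p under 0.05. None of them had an FDR under 0.05, against 3 of all genes. In ESCs, Kcnh3 had the smallest p (0.38, SE 0.19, unadjusted p 0.109, with no block in the fit) and the largest fold change, that of Kcnq5 at -1.21 (SE 0.93), rested on 1 WT value of 2.32 CPM against 0.510 in the other. With the replicate number as a block, which the 2 ESC pairs allow, 4 of the ESC genes had an unadjusted p under 0.05. At an FDR under 0.05 there were 0, against 513 of all genes. The shares of all genes at an unadjusted p under 0.05 were not worked out for the block fits.

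The difference of the KO effect between PFC and STR was tested as an interaction over the 12 brain libraries. Of 77 tested potassium channel genes 0 had an FDR under 0.05, against 0.00624% of 16028 genes, and 13 had an unadjusted p under 0.05, 16.9% against 6.41%. Without STR KO replicate 1 or PFC KO replicate 3 that count was 4, without PFC WT replicate 2 it was 6, without STR WT replicate 3 or PFC KO replicate 2 it was 8, and without STR KO replicate 3 it was 25. For these smaller fits the shares over all genes were not worked out. Kcna5 had the smallest p, with a difference of 0.69 on the log2 scale (SE 0.22, FDR 0.620), followed by Kcnip1 with -0.37 (SE 0.13, FDR 0.649). Of the 19 partner genes 0 were called in any KO comparison.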

How the data were processed

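Reads were aligned by the authors with STAR to mm10 and counted with HTSeq on Ensembl release 75, with base calls from CASAVA 1.7 per the labels' processing notes, and the raw counts per gene were deposited, 1 table per sample. For the ESC and NPC tables the counting is labelled as not stranded, and for the brain tables the strand setting is not given in the sources used here. The TruSeq RNA kit was used. Lines for reads outside genes (9.42 to 16.8% of uniquely mapped reads had no feature) stayed out of library sizes and tests. Of 39179 identifiers 37607, with 99.7% of counts, were matched to GENCODE M21 for symbols, coordinates and exon lengths. Of the 93 genes 15 share exon bases with another gene, and 3 of them, Kcna6, Kcnmb4 and Kcnj3, over 20%.

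CPM and RPKM were computed here with TMM scaling, within the samples of each comparison for CPM. Genes were filtered with filterByExpr and tested with edgeR 4.0.16 (R 4.3.3, robust quasi-likelihood test), each comparison fitted on its own samples over all genes, with Benjamini-Hochberg FDR. The scripts were tested on simulated data. Genes to be named were, in each KO comparison, the 5 higher and 5 lower with the smallest p, in PFC against STR the 10 and in NPCs against ESCs the 8 largest called fold changes each way, the leader of each subfamily by level, the 2 genes of smallest p in the interaction and 5 partner genes. Further genes were chosen after their values were seen. Some genes that the rule or the plots would name are not reported here, though all counts include them. The genes and lists were chosen with earlier results of these data known. Alternatives were DESeq2 1.42.0, edgeR's exact test, RLE scaling, no filter, a fold threshold, a replicate block, the KO or all brain samples, and leaving out each library; the KO fit without STR KO replicate 1 was chosen after seeing the data.

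Replicates of a group differed by 1.89 to 40.5 times counting noise (chi-square per degree of freedom), so each was counted as 1 sample. The numbers of the labels pair KO with WT NPCs, where same-numbered samples deviated together (r of 0.565, 0.697 and 0.521 over genes), and WT PFC with WT STR (0.348, 0.181 and 0.374), which rests on the data and not on the labels. Counting intervals and floors cover counting error only, since reads carry no molecular identifiers.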

Additional observations from a re-analysis of the deposited data

How the results depend on the processing

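No potassium channel gene was called for KO in STR, NPCs or ESCs or in the interaction under any alternative run. In PFC the count was 1 with DESeq2, 1 with edgeR's exact test and 1 with no filter, all Kcnk13, and 0 to 2 with 1 library left out. Over all genes the PFC counts were 196, 375 and 379 in the same order, and 2 to 154 with 1 library left out. For PFC against STR in WT the count of 51 was 23 when a log2 fold change beyond 1 was also required, 40 to 49 with 1 library left out, and 46 to 64 in the other alternatives, and for NPCs against ESCs the count of 44 was 37 to 52 and 41 to 46 with 1 library left out. Relative to WT PFC the summed level, 88.8% in STR, 32.8% in NPCs and 6.53% in ESCs by RPKM, was 91.4%, 22.7% and 4.13% as TPM. The replicate block gave 59 calls for PFC against STR, with 8 genes besides the 51, 37 for NPCs against ESCs, whose same-numbered samples share only a number (r of 0.0066 and -0.0239), and 0 in every KO comparison, and changed no other call. KO and WT samples of PFC and STR did not deviate together by number (r of -0.034 to 0.131), and those of ESCs did (0.870). With 2 ESC samples a group both pairs must give the same r, so this is 1 value. Of the settings tried for single named genes 930 kept direction and call, 15 lost the call, 4 gained it and 1 turned the direction. In ESCs the KO log2 fold change of Kcnq5, -1.21, ranged from -1.93 to 0.26 with 1 library left out, positive without WT replicate 2, and the cause was not tested. Only few potassium channel reads were counted in ESCs (0.0237 to 0.0268% of counts), which limits what could be seen there.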
